A study of Mus musculus with 18 samples.

Results

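Fos, Fosb, Fosl2, Jun, Junb, Jund, Egr1, Ier2, Ier3 and Myc are 10 immediate early response genes, chosen by name among the 37303 genes of the deposited liver expression table, in which each name matched 1 entry. The livers came from 18 mice on a C57BL/6J background (at least 8 generations), all of them injected intraperitoneally once a day for 8 days and killed 7.5 h after the last injection. The 3 genotypes were wild type (WT), homozygous deletion of Gcn2 (Gcn2-/-) and homozygous deletion of Atf4 (Atf4-/-), and each was given either asparaginase (ASNase, 3 IU per gram body weight) or the excipient, phosphate buffered saline (PBS). Each of the 6 groups held 3 mice of both sexes, with 1 male in WT PBS, Gcn2-/- PBS and Gcn2-/- ASNase and 2 males in WT ASNase, Atf4-/- PBS and Atf4-/- ASNase. The labels give the age as 8 to 12 weeks in one field and 8 to 16 weeks in another. Both deletions were carried by all cells of the animal, so effects that arise in the liver cannot be told apart from effects that reach it from other organs.

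Immediate early genes are transcribed within minutes of a stimulus from factors that the cell already holds, such as SRF with its TCF partners and CREB, which MAP kinases and other kinases activate. Products of the Fos and Jun families pair through leucine zippers to form AP-1, the transcription factor complex that acts on TGANTCA sites. EGR1 is a zinc finger transcription factor, MYC pairs with MAX to drive growth and ribosome production, and IER2 and IER3 are small proteins of the early response, IER3 having been linked to cell survival. In liver, Jun, Fos, Egr1 and Myc are known for their induction after partial hepatectomy and injury. ASNase depletes blood asparagine and, to a lesser degree, glutamine. GCN2 (gene Eif2ak4) is the kinase that senses uncharged tRNA, and ATF4 is the transcription factor whose translation then increases.

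Promoters of the 4 members with a searched window that were called in at least 1 comparison (Jun, Junb, Fosl2 and Ier3) are shown. That of Fos, which was not called, stands beside them. The table gives mRNA levels only, and the stretch next to the start site is where factors that control such genes are known to bind. Windows were taken from the RefSeq promoter table (GRCm38.p6, the assembly also called mm10). They were searched for 7 of the 10 genes, namely Fos, Fosb, Fosl2, Jun, Junb, Jund and Ier3. No window was searched for Egr1, Ier2 or Myc. The motif counts thus leave out Egr1 and Myc, which were called in at least 1 comparison. Each window runs from 250 bases before the annotated start to 50 bases from it on, 5′ to 3′ on the gene's strand, and positions count the start as 1 and the base before it as -1. Capitals mark every match, on either strand, to 10 motifs, namely the AP-1 site TGANTCA, the CRE or CRE-like site TGACNTCA, the CRE half-site TGACG (which a full CRE also holds), the CArG box bound by SRF, the EGR site GCGNGGGCG, the STAT site TTCNNNGAA, the C/EBP-ATF site TGATGNAA, the E-box CACGTG, the CCAAT box and the TATA box TATAAA. The windows are chr4:95052173-95052472 on the minus strand (Jun), chr8:84978699-84978998 on the minus strand (Junb), chr12:85473640-85473939 on the plus strand (Fos), chr5:32136222-32136521 on the plus strand (Fosl2) and chr17:35821463-35821762 on the plus strand (Ier3).
Jun: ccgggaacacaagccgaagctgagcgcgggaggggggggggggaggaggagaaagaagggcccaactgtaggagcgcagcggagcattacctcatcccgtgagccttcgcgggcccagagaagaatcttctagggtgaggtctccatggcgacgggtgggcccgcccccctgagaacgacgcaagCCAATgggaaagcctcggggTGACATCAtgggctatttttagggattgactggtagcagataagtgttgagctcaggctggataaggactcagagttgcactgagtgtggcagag
Junb: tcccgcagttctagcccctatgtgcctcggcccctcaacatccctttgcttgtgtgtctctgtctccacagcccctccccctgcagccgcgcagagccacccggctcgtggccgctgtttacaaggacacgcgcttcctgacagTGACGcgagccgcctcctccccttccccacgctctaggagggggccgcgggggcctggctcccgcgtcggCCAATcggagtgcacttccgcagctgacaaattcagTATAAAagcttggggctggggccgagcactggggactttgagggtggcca
Fos: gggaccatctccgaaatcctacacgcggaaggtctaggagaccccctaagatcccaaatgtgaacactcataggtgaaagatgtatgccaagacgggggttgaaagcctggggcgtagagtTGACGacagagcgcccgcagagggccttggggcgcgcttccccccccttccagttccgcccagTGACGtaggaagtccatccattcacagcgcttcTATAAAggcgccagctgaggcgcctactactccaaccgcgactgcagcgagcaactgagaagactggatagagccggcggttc
Fosl2: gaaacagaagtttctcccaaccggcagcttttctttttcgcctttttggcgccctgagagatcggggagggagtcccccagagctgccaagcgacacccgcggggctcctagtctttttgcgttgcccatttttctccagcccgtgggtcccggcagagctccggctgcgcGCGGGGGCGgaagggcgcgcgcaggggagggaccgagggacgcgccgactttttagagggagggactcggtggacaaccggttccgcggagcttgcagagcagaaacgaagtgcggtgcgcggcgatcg
Ier3: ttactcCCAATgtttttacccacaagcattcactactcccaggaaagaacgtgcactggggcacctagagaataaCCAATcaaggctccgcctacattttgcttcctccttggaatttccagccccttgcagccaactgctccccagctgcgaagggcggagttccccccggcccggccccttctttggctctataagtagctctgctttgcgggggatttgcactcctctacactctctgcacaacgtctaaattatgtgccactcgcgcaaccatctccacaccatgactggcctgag

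In Jun the capitals mark TGACATCA at -45 to -38, a CRE-like match of a kind held by 8.83% of the 32851 promoters of this length, and a CCAAT box at -65 to -61. Junb held a CRE half-site at -106 to -102, a CCAAT box at -36 to -32 and a TATA box at 1 to 6. The Fos window held CRE half-sites at -129 to -125 and at -66 to -62 and a TATA box at -33 to -28. The match in Fosl2 is an EGR site at -79 to -71, and those in Ier3 are CCAAT boxes at -244 to -240 and -175 to -171. GENCODE M21 places the starts of Junb (84978718), Fosl2 (32135801) and Ier3 (35821684) at other bases than the windows do. Positions in these genes, such as that of the Junb TATA box, thus hold for the RefSeq start only. Over the 7 windows, 3 held the CRE half-site (20.8% of all promoters), 3 the CCAAT box (37.4%), 2 the TATA box (13.6%), 2 the EGR site (5.55%) and 1 the CRE or CRE-like site. The AP-1 site (7.81% of all promoters), CArG box (1.63%), STAT site (8.30%), C/EBP-ATF site (3.97%) and E-box (7.15%) had 0 matches in the 7 windows, which says only that these letters are not in these 300 bases. Jun, Junb, Jund and Ier2 have a single exon in GENCODE M21, and Junb, Jund and Ier2 all lie on chromosome 8.

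The unit of the table is FPKM, sequenced fragments scaled to transcript length and to library size, so that levels can be compared between genes. Cuffdiff estimated 1 FPKM per group from its 3 libraries together, with a lower and an upper bound that are given here in brackets. The table holds no value of a single library, so there is no SD, n or p-value, and no difference between groups has a replicate check. A gene was called higher or lower between 2 groups when FPKM was over 3 in either group, the difference of log2(FPKM + 0.1) was over 1.5 in size and the brackets did not overlap. All 60 member values had the status OK. Every log2 difference below is on the log2(FPKM + 0.1) scale, which understates changes of low genes, and the range after it combines the errors of both values. In whole liver, a change in the share of a cell type and a change in RNA per cell cannot be told apart.

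**Figure D1:**
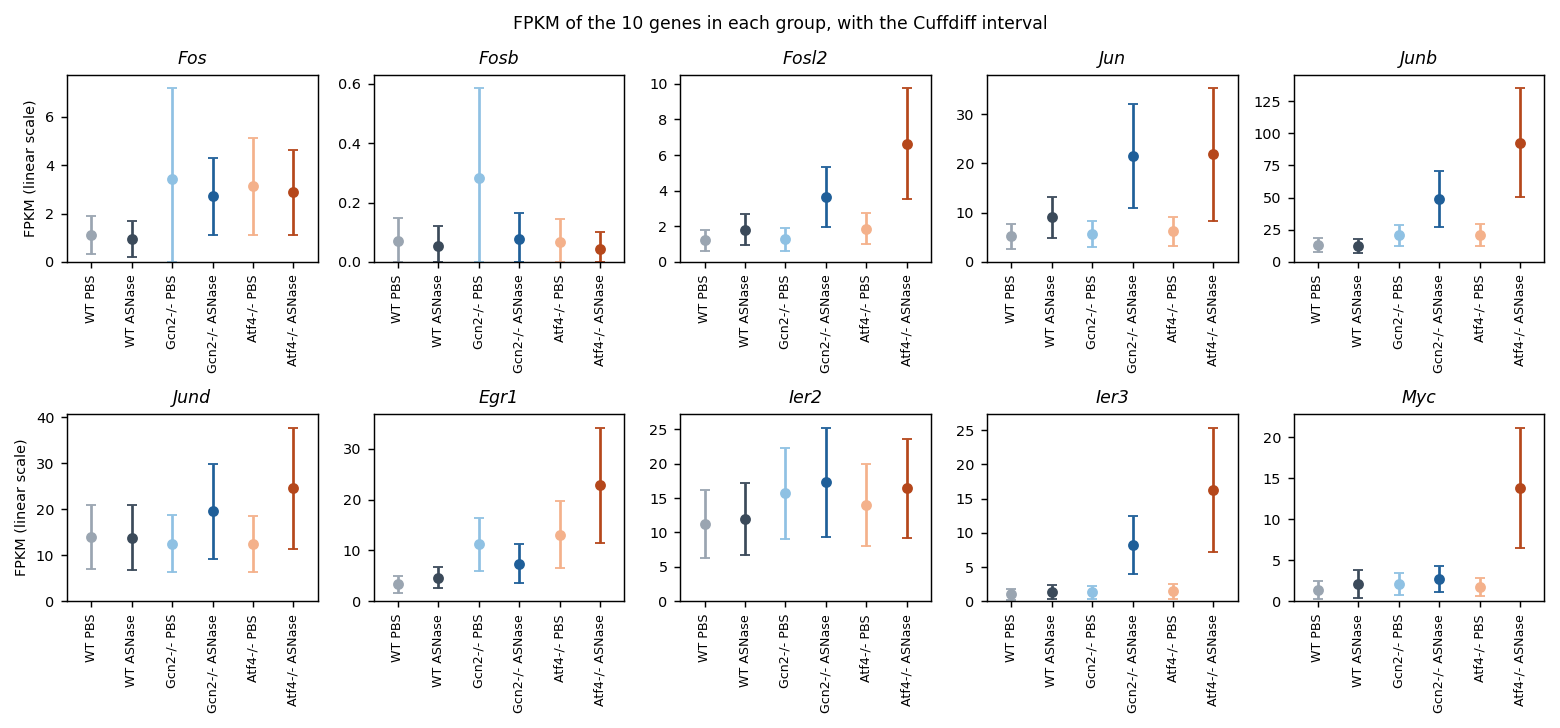
FPKM of the 10 genes (1 panel each, linear scale, own axis) in the 6 groups. Points are the Cuffdiff estimates and bars the interval bounds. Junb, Jun, Ier3 and Fosl2 are highest in the 2 ASNase groups that lack Gcn2 or Atf4, Myc stands out in Atf4-/- ASNase alone at 13.8, and the bars of Ier2 and of Jund overlap in all groups.

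Junb, whose product is the Jun protein that often opposes c-Jun, had the highest FPKM of the 10 genes after ASNase in both mutant strains. Its FPKM was 13.1 (7.50 to 18.7) in WT PBS and 12.7 (7.32 to 18.1) in WT ASNase. In Gcn2-/- livers PBS gave 20.6 (12.1 to 29.0) and ASNase 49.0 (27.2 to 70.8), and in Atf4-/- livers 20.7 (12.0 to 29.4) and 92.6 (50.3 to 135). The WT values thus lay side by side, while the Atf4-/- ASNase interval lay above those of 4 of the 5 other groups, with Gcn2-/- ASNase as the exception. Junb was called higher after ASNase in Atf4-/- livers by a log2 difference of 2.15 (1.14 to 3.10). In Gcn2-/- livers the difference was 1.25 (0.27 to 2.17), which was not called because it is under the limit and the brackets overlap. Under ASNase Junb was called higher than in WT in both mutants, by 1.94 (0.96 to 2.89) in Gcn2-/- and by 2.86 (1.84 to 3.81) in Atf4-/- livers.

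Jun, the founding member of the family and the classic partner of FOS, had an FPKM of 5.24 (2.71 to 7.76) in WT PBS and 9.03 (4.87 to 13.2) in WT ASNase. In Gcn2-/- livers the values were 5.67 (3.03 to 8.32) and 21.4 (10.9 to 32.0), and in Atf4-/- livers 6.24 (3.29 to 9.19) and 21.8 (8.40 to 35.2). The PBS values thus lay between 5.24 and 6.24, the ASNase values of both mutants next to each other, and WT ASNase in between. Jun was called higher after ASNase in Gcn2-/- livers, by 1.90 (0.79 to 2.95). The Atf4-/- difference was 1.79 (0.32 to 2.92), of nearly the same size but not called, because the wider interval of Atf4-/- ASNase reached down into that of Atf4-/- PBS. Between Atf4-/- ASNase and Gcn2-/- ASNase the difference of Jun was 0.02 (-1.46 to 1.22), a range that allows a large difference either way, and its sign turned (-0.00) under median-ratio scaling. The table's entry for Jun covers 118285 bases, in which GENCODE also places the antisense gene Junos and the long noncoding gene 4930551L18Rik. The counting is not stated to use strand, so reads of Jun and Junos cannot be told apart.

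Jund, the Jun gene that is expressed at a steady level in most tissues, ranged from 12.4 (6.27 to 18.5) in Atf4-/- PBS to 24.5 (11.3 to 37.7) in Atf4-/- ASNase. The WT values were 14.0 (PBS) and 13.9 (ASNase) and the Gcn2-/- values 12.5 and 19.6, and the intervals of all 6 groups overlapped. ASNase minus PBS gave -0.01 (-1.17 to 1.12) for WT, 0.64 (-0.58 to 1.77) for Gcn2-/- and 0.98 (-0.27 to 2.13) for Atf4-/- livers, none of them called. Jund overlaps the antisense gene Gm11175, and the same limit on strand holds.

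Fos, the inducible FOS subunit, was low in every group. Its FPKM was 1.10 (0.313 to 1.89) in WT PBS and 0.960 (0.220 to 1.70) in WT ASNase, 3.44 (0 to 7.17) and 2.70 (1.11 to 4.30) in Gcn2-/- PBS and ASNase, and 3.12 (1.12 to 5.13) and 2.87 (1.13 to 4.61) in Atf4-/- PBS and ASNase. All 4 mutant values exceeded both WT values, but each mutant interval overlapped those of WT. The difference under PBS was 1.56 (-3.64 to 3.42) in Gcn2-/- and 1.42 (-0.16 to 3.12) in Atf4-/- livers relative to WT. Under ASNase it was 1.40 (-0.03 to 3.25) in Gcn2-/- and 1.49 (0.001 to 3.34) in Atf4-/- livers relative to WT. Fos was not eligible in these ASNase comparisons and could not be called. After ASNase the differences from PBS were -0.18 in WT, -0.34 in Gcn2-/- and -0.12 in Atf4-/- livers, so the Fos value after ASNase was below that under PBS in each strain, by less than the error. Fosb stayed between 0.0450 and 0.284 FPKM, with a lower bound of 0 in all 6 groups, and could not be called in any comparison.

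Fosl2, which encodes the FOS-related subunit FRA2, was called in Atf4-/- ASNase, while Fos was called in no comparison. Its FPKM was 1.21 (0.591 to 1.82) in WT PBS and 1.82 (0.971 to 2.67) in WT ASNase. It was 1.28 (0.641 to 1.92) and 3.67 (1.99 to 5.35) in Gcn2-/- PBS and ASNase and 1.88 (1.01 to 2.75) and 6.64 (3.54 to 9.74) in Atf4-/- PBS and ASNase. The Atf4-/- ASNase interval lay above those of 4 groups and overlapped that of Gcn2-/- ASNase. After ASNase the difference was 1.77 (0.73 to 2.77) in Atf4-/- livers, which was called, and 1.45 (0.43 to 2.49) in Gcn2-/- livers, where the brackets were separate but the difference was just under the limit. Relative to WT ASNase, Fosl2 was called higher in Atf4-/- ASNase by 1.81 (0.78 to 2.81). In that comparison Fos was not eligible and could not be called. With a pseudocount of 1 in place of 0.1, both Fosl2 calls were lost (1.41 and 1.44).

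Summed over each family, Jun transcripts far exceeded Fos transcripts in every group. The Jun family sum was 32.3 FPKM (23.1 to 41.6) in WT PBS and 35.6 (25.8 to 45.3) in WT ASNase, 38.8 (28.1 to 49.6) and 90.0 (63.7 to 116) in Gcn2-/- PBS and ASNase, and 39.4 (28.3 to 50.4) and 139 (92.7 to 185) in Atf4-/- PBS and ASNase. The Fos family sum ran from 2.38 (1.38 to 3.38) in WT PBS to 9.55 (6.00 to 13.1) in Atf4-/- ASNase. Junb made up 40.5% of the Jun sum in WT PBS, 35.7% in WT ASNase, 53.0% and 54.5% in Gcn2-/- PBS and ASNase, and 52.7% and 66.7% in Atf4-/- PBS and ASNase. Within the Fos sum, the Fosl2 share went from 25.6% to 56.9% between PBS and ASNase in Gcn2-/- livers and from 37.1% to 69.5% in Atf4-/- livers, with 50.7% and 64.3% in WT. The shares are ratios of the group estimates and carry no interval.

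**Figure D2:**
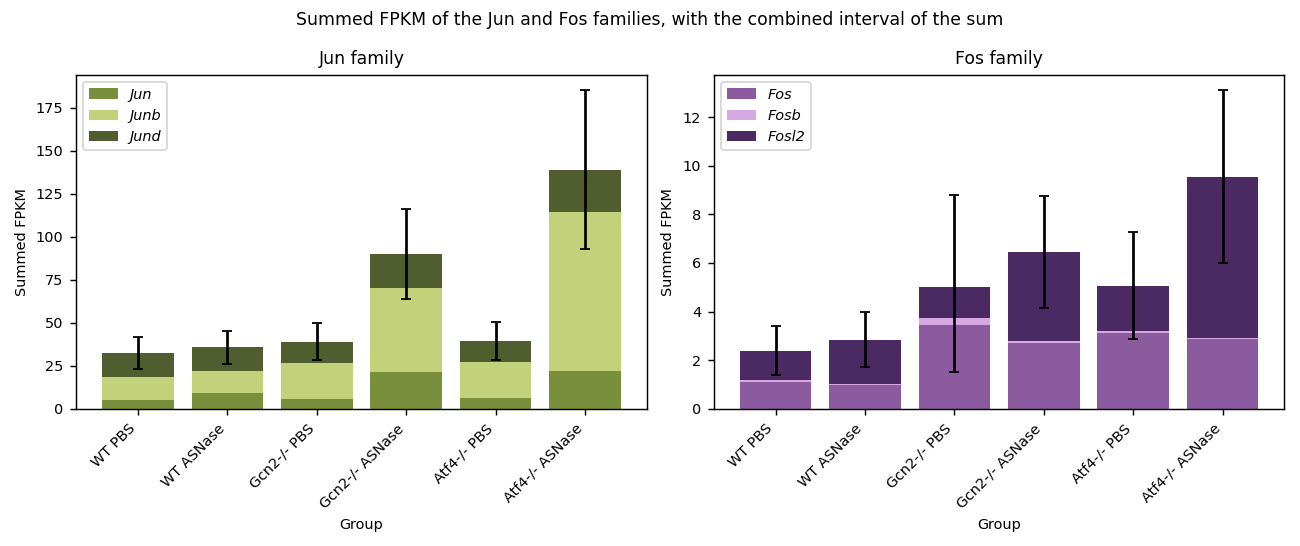
Stacked bars of summed FPKM (linear scale from 0, a separate axis for each family) for Jun, Junb and Jund and for Fos, Fosb and Fosl2 in the 6 groups, with the combined interval of the sum. The Jun sums of the mutant ASNase groups, 90.0 and 139, lie above the intervals of the other 4 groups, and the Fosl2 segment fills most of the Fos sum of 9.55 in Atf4-/- ASNase.

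Egr1 was the only member called between strains under PBS. Its FPKM was 3.34 (1.72 to 4.95) in WT PBS, 11.2 (6.05 to 16.3) in Gcn2-/- PBS and 13.1 (6.47 to 19.7) in Atf4-/- PBS. Under ASNase WT livers held 4.62 (2.54 to 6.69), Gcn2-/- livers 7.42 (3.59 to 11.3) and Atf4-/- livers 22.9 (11.5 to 34.2). Both mutant PBS intervals lay above that of WT PBS, and Egr1 was called higher by 1.72 (0.68 to 2.78) in Gcn2-/- and by 1.94 (0.79 to 3.03) in Atf4-/- livers. The Gcn2-/- call was lost with a pseudocount of 1, where the difference was 1.49. After ASNase the differences from PBS were 0.46 in WT, -0.59 (-1.75 to 0.47) in Gcn2-/- and 0.80 (-0.34 to 1.96) in Atf4-/- livers, none of them called. The opposite signs in the mutants left Egr1 called higher in Atf4-/- ASNase than in Gcn2-/- ASNase, by 1.61 (0.47 to 2.79), while the difference between these responses, 1.39 (-0.17 to 3.03), did not exceed its error. Relative to WT ASNase, Egr1 was called higher in Atf4-/- ASNase by 2.28 (1.17 to 3.30), and in Gcn2-/- ASNase the difference was 0.67 (-0.48 to 1.70). Nab1 and Nab2, which encode corepressors that bind EGR1, were eligible in all 9 comparisons and called in 0. Over all eligible genes 0.881% to 8.25% were called in these comparisons, so the 0 does not set this pair apart.

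Ier3 had the widest range of the 10 genes, with a ratio of 16.3 between its highest and lowest group. WT livers held 1.0 (0.201 to 1.80) FPKM under PBS and 1.36 (0.352 to 2.37) after ASNase, and under PBS Gcn2-/- livers held 1.30 (0.339 to 2.27) and Atf4-/- livers 1.47 (0.380 to 2.56). After ASNase it was 8.24 (4.02 to 12.5) in Gcn2-/- and 16.3 (7.27 to 25.4) in Atf4-/- livers. These 2 intervals overlapped each other and lay above those of the other 4 groups. Ier3 was called higher after ASNase by 2.57 (1.31 to 4.35) in Gcn2-/- and by 3.39 (2.0 to 5.21) in Atf4-/- livers, and relative to WT ASNase by 2.51 (1.24 to 4.31) and 3.49 (2.11 to 5.30). Ier2, which shares part of its name but not its gene family, ran from 11.2 (6.28 to 16.1) in WT PBS to 17.3 (9.31 to 25.2) in Gcn2-/- ASNase, with 12.0 in WT ASNase, 15.7 in Gcn2-/- PBS, 14.0 in Atf4-/- PBS and 16.4 in Atf4-/- ASNase. All 6 Ier2 intervals overlapped, and its differences after ASNase were between 0.10 and 0.23.

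Myc was high in a single group. WT livers held 1.38 (0.244 to 2.52) FPKM under PBS and 2.12 (0.435 to 3.81) after ASNase, Gcn2-/- livers 2.08 (0.729 to 3.43) and 2.71 (1.16 to 4.26), and Atf4-/- PBS livers 1.75 (0.609 to 2.90). In Atf4-/- ASNase it was 13.8 (6.46 to 21.2), above the intervals of all 5 other groups. Myc was called higher there than in Atf4-/- PBS by 2.91 (1.62 to 4.42), than in WT ASNase by 2.65 (1.29 to 4.79) and than in Gcn2-/- ASNase by 2.31 (1.05 to 3.61). In Gcn2-/- livers the difference after ASNase was 0.37 (-0.98 to 1.90).

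Of 20 Myc target genes, listed with earlier results of these data known and so no independent support, 19 were eligible after ASNase in each strain, and their median log2 difference came to 0.12 for WT, 0.28 for Gcn2-/- and 1.24 for Atf4-/- livers, against -0.01, 0.02 and 0.08 over all eligible genes. In Atf4-/- livers 4 were called, all higher, where 2.74% of all eligible genes were called higher and 7.37% in either direction. In the other strains 0 were called (3.69% of all eligible genes in Gcn2-/- and 0.881% in WT). For a list of 19 genes these counts of 0 are near those shares. Nop58, a ribosomal RNA processing factor, was at 8.72 (4.92 to 12.5) FPKM in Atf4-/- PBS and 41.2 (23.6 to 58.8) in Atf4-/- ASNase, a difference of 2.23. Srm, spermidine synthase, was at 13.9 and 56.8 (difference 2.02), Odc1, the rate-limiting enzyme of polyamine synthesis, at 17.1 and 50.6 (1.56), and Ddx21, a nucleolar RNA helicase, at 8.06 and 24.2 (1.58). Relative to WT ASNase the 19 eligible targets had a median of 1.10, with Nop58 alone called (1.78). Of the 9 partners and antagonists of Myc in the MAX network, 6 or 7 were eligible and 0 were called in any comparison, where 0.881% to 8.25% of all eligible genes were called, so the 0 does not set this short list apart, and Max itself was at 9.63 and 12.3 FPKM in Atf4-/- PBS and ASNase.

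**Figure D3:**
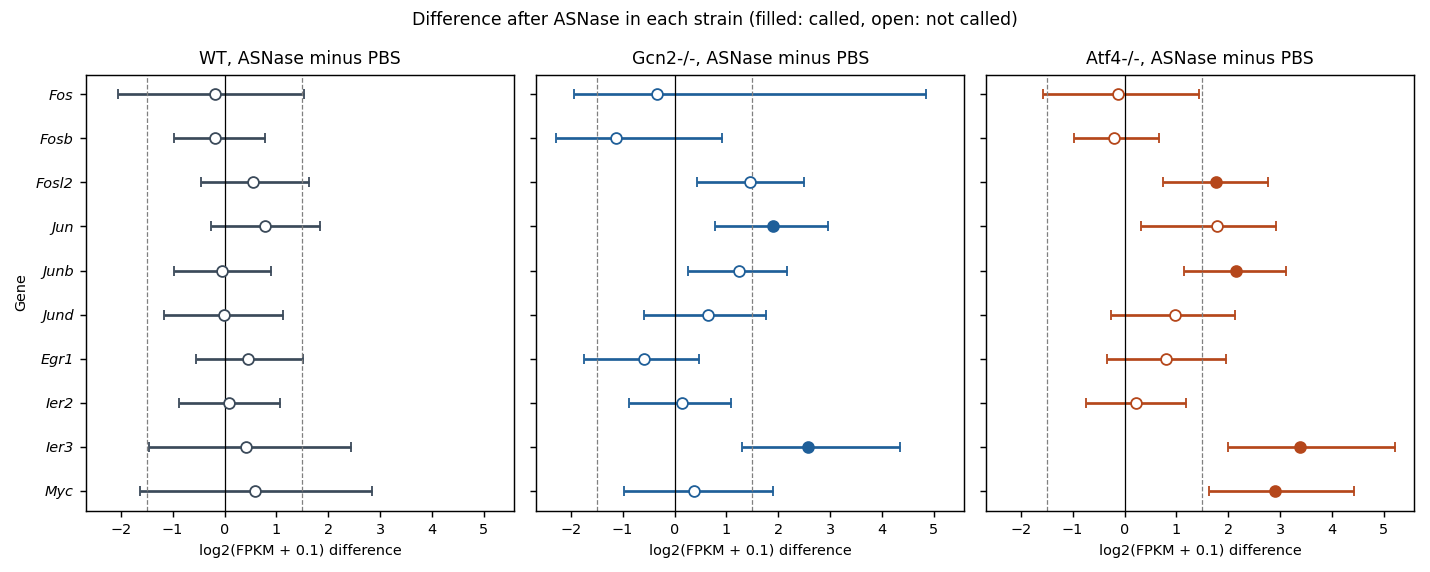
Difference of log2(FPKM + 0.1), ASNase minus PBS, for the 10 genes in each strain. Points are the differences, bars the combined interval, filled points were called, and dashed lines mark the limit of 1.5. Of 10 points, 0 are filled in WT, 2 in Gcn2-/- (Jun 1.90 and Ier3 2.57) and 4 in Atf4-/- (Fosl2 1.77, Junb 2.15, Ier3 3.39 and Myc 2.91). In WT, Fos, Fosb, Fosl2, Ier3 and Myc were not eligible and could not be called.

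Within strains, members were called after ASNase in the mutants and not in WT. In WT, however, Fos, Fosb, Fosl2, Ier3 and Myc were not eligible and could not be called. The Fosl2, Ier3 and Myc calls in Atf4-/- livers passed the FPKM limit only through the ASNase value (PBS 1.88, 1.47 and 1.75). So did the Ier3 call in Gcn2-/- livers (PBS 1.30). Calls of these genes against WT ASNase likewise passed only through the mutant value. Of the 5 eligible members 0 were called in WT, where 0.881% of 9084 eligible genes were called in either direction and 0.76% higher. The 0 in WT is near those shares and does not set the members apart from all genes there. The largest difference in WT was 0.78 (Jun). In Gcn2-/- livers 2 of 8 eligible members were called (Jun and Ier3), beside 3.69% of 9218 eligible genes in either direction and 1.56% higher. In Atf4-/- livers 4 of 9 were called (Fosl2, Junb, Ier3 and Myc), beside 7.37% of 9485 genes in either direction and 2.74% higher. The median difference over all 10 members came to 0.25 (WT), 0.50 (Gcn2-/-) and 1.37 (Atf4-/-), beside -0.01, 0.02 and 0.08 over all eligible genes. No member was called lower in any of the 9 comparisons, with 5 to 9 members eligible in each. Over all eligible genes, calls of lower ran from 11 of 9084 (WT ASNase against WT PBS) to 542 of 9577 (Atf4-/- ASNase against WT ASNase). For so few members the 0 does not set them apart from all genes. Members that passed the FPKM limit only through the higher group could not be called lower.

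A call in a mutant and none in WT does not show that the responses differ, so the responses were also subtracted from each other. A difference of responses was taken as over its error when it was over 1.5 in size, its combined interval left out 0 and at least 1 of the 4 values was over 3 FPKM. Between Atf4-/- and WT this held for Junb, whose response differed by 2.20 (0.81 to 3.53), and for Ier3, 2.97 (0.53 to 5.59). Between Atf4-/- and Gcn2-/- livers it held for Myc, 2.54 (0.54 to 4.57). Between Gcn2-/- and WT it held for 0 of the 10 genes, the largest difference being 2.16 (-0.22 to 4.74) for Ier3. Myc differed between Atf4-/- and WT by 2.32 (-0.28 to 5.0), which is not over its error because the WT values are low and wide. With a pseudocount of 1 both Ier3 (1.76) and Myc (2.03) passed. The PBS group of a strain enters each of its comparisons, so these values are not independent of one another.

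Under PBS, 1 of 6 eligible members was called higher than in WT in each mutant, Egr1 both times, where 1.04% of 8920 eligible genes were called in either direction and 0.392% higher in Gcn2-/- livers, and 1.12% of 9039 and 0.354% in Atf4-/- livers. Between the mutants under PBS 0 of 6 members were called (0.976% of 9015 genes in either direction and 0.544% higher), and the median difference of the 10 was -0.00. Both comparisons with WT use the same WT PBS group. Under ASNase, 2 of 7 eligible members were called higher in Gcn2-/- than in WT livers (Junb and Ier3, against 1.83% of 9423 genes called higher and 4.41% in either direction). In Atf4-/- livers 5 of 8 were called higher than in WT (Fosl2, Junb, Egr1, Ier3 and Myc, against 2.59% of 9577 genes called higher and 8.25% in either direction). Atf4-/- ASNase exceeded Gcn2-/- ASNase for 2 of 8 (Egr1 and Myc, against 0.898% of 9355 genes called higher and 3.19% in either direction). The median over the 10 members in these 3 comparisons was 0.82, 1.65 and 0.58, where that of all eligible genes was 0.05, 0.07 and 0.00.

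Other genes of the early response were read from lists chosen for their roles. Earlier results of these data were known when the lists were chosen, so their calls are no independent support. Among 11 further AP-1 and small Maf subunits, 6 were eligible after ASNase, and 1 was called, in Atf4-/- livers (7.37% of all eligible genes). This was Atf3, a stress-induced partner of Jun proteins, at 0.896 (0.218 to 1.57) FPKM in Atf4-/- PBS and 13.3 (6.19 to 20.4) in Atf4-/- ASNase, a difference of 3.75 (2.43 to 5.51). That call passed the FPKM limit only through the ASNase value and could not be lower. Atf3 was at 1.37 and 3.14 in WT PBS and ASNase and at 1.07 and 3.60 in Gcn2-/- livers, where the intervals overlapped. The Gcn2-/- difference, 1.66 (-0.36 to 3.62), was over the fold limit. So was that of Mafk in Atf4-/- livers, 1.61 (0.36 to 3.18), not called and named after its values were seen. Under ASNase Atf3 was called higher in Atf4-/- than in WT livers by 2.05.

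Among 23 other immediate early transcription factors and cofactors, 3 of 16 eligible genes were called after ASNase in each mutant, all higher, and 0 of 15 in WT. Over all eligible genes 1.56% were called higher in Gcn2-/-, 2.74% in Atf4-/- and 0.76% in WT livers, so the 0 in WT is near that share. Btg2, an antiproliferative cofactor, went from 7.55 (4.31 to 10.8) to 36.1 (20.2 to 52.0) FPKM in Gcn2-/- livers and from 4.89 (2.64 to 7.14) to 32.5 (17.5 to 47.5) in Atf4-/- livers, with 5.12 and 4.86 in WT. Ier5 went from 1.54 to 5.11 in Gcn2-/- and from 1.64 to 9.39 in Atf4-/- livers, with 1.74 and 1.68 in WT. Its calls passed the FPKM limit only through the ASNase value and could not be lower. In WT Ier5 was not eligible and could not be called. Per1, a clock gene, was the third in Gcn2-/- livers (4.77 and 18.1) and Id1, a BMP target, the third in Atf4-/- livers (8.09 and 26.0), and both are named here after their values were seen. Under ASNase, Id3 was called higher in Gcn2-/- than in WT livers (77.0 against 20.2), and Cited2, a CBP/p300 cofactor, lower in Atf4-/- than in Gcn2-/- livers (3.30 against 16.9, a difference of -2.33).

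Among 30 immediate early genes that do not encode transcription factors, 3 of 26 eligible genes were called higher after ASNase in Gcn2-/- livers, 4 higher and 1 lower in Atf4-/- livers, and 0 of 25 in WT. The shares called in either direction over all eligible genes were 3.69%, 7.37% and 0.881%, and the 0 in WT is near the last of these. Tnfaip3, a feedback inhibitor of NF-kappaB, went from 0.652 (0.0214 to 1.28) to 12.8 (5.34 to 20.3) FPKM in Gcn2-/- and from 0.893 (0.219 to 1.57) to 19.7 (6.62 to 32.8) in Atf4-/- livers, with 1.01 and 0.734 in WT. Gadd45g, a growth arrest gene, went from 5.80 (2.41 to 9.19) to 126 (70.2 to 181) in Gcn2-/- and from 19.9 (10.8 to 28.9) to 89.7 (47.0 to 132) in Atf4-/- livers, with 9.49 and 7.62 in WT, and was already called higher in Atf4-/- than in Gcn2-/- livers under PBS (1.76). Socs3, the feedback inhibitor of the IL-6 and STAT3 pathway, went from 4.93 (1.43 to 8.44) to 26.8 (11.9 to 41.7) and from 7.23 (2.40 to 12.1) to 56.6 (20.1 to 93.1), with 3.36 and 2.57 in WT. These 3 genes were thus called in both mutants. Both Tnfaip3 calls passed the FPKM limit only through the ASNase value (PBS 0.652 and 0.893) and could not be lower. In WT, Gadd45g and Socs3 were eligible and not called, while Tnfaip3 was under the FPKM limit and could not be called. Pim1, a survival kinase gene, was called in Atf4-/- livers (6.42 and 31.8) and was at 6.85 and 6.61 in Gcn2-/- livers. The gene called lower in Atf4-/- livers was Cyr61, a matricellular protein gene (5.98 and 1.21), named after its values were seen.

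**Figure D4:**
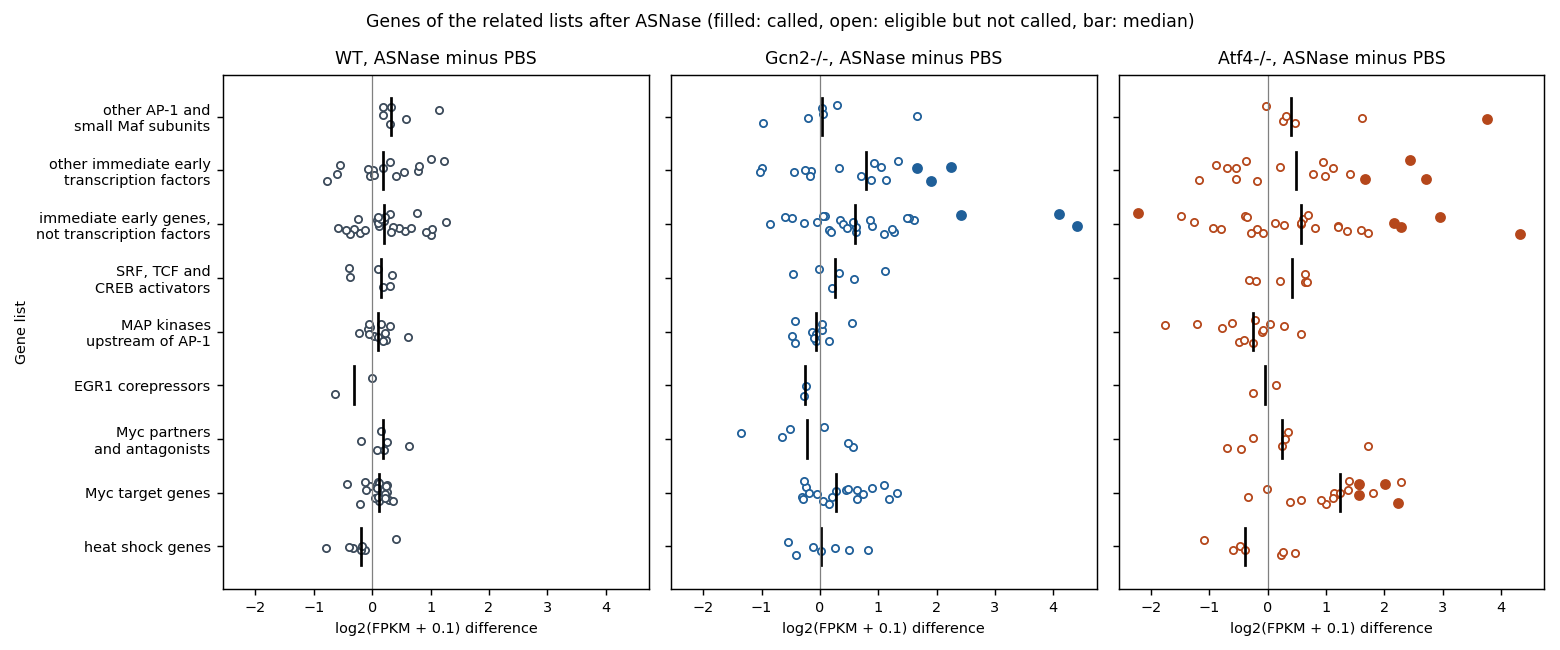
Difference of log2(FPKM + 0.1), ASNase minus PBS, for each eligible gene of 9 related lists in the 3 strains. Filled points were called, open points were not, and the black bar is the list median. In WT 0 points are filled, and the median of the Myc targets stands at 1.24 in Atf4-/- livers, against 0.12 in WT.

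Activators and kinases that act on these genes were examined at the transcript level, in comparisons in which 0.881% to 8.25% of all eligible genes were called. Of 9 SRF, TCF and CREB activators (of which Srf is also in the list of 23 transcription factors) 5 or 6 were eligible per comparison and 0 were called in any, with medians between 0.15 and 0.43 after ASNase. Of 14 MAP kinases and related kinases 11 to 13 were eligible and 0 were called, with median responses to ASNase of 0.11 (WT), -0.07 (Gcn2-/-) and -0.26 (Atf4-/-). Lists of this size would hold about 0 or 1 call at those shares, so the counts of 0 do not set them apart from all genes. These genes are mainly regulated through their proteins' phosphorylation, which mRNA levels do not show. Of 8 heat shock genes 7 were eligible, 0 were called after ASNase in any strain, and their medians were -0.19, 0.01 and -0.39. Hspa1b was called lower than in WT in Gcn2-/- PBS (2.18 against 7.49 FPKM) and in Atf4-/- ASNase (1.55 against 5.94), and Hspb1 higher in Atf4-/- PBS than in Gcn2-/- PBS (14.6 against 4.16).

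The targeted genes and the tissue were checked against the labels. Atf4 was at 32.3 (19.1 to 45.5) and 29.3 (17.3 to 41.2) FPKM in Atf4-/- PBS and ASNase and between 50.4 and 68.1 in the other 4 groups, with intervals that overlapped, as between Atf4-/- PBS and WT PBS (29.7 to 71.1). Eif2ak4 was between 2.19 and 3.14 in all 6 groups, so its summed FPKM did not set the Gcn2-/- groups apart. Hepatocyte markers dominated each group, with a summed FPKM between 9191 and 19331 over 10 genes, although Alb had no valid estimate in any group and is listed at 0. The number of genes over 1 FPKM was between 11114 and 11608, and among genes over 3 FPKM the median distance from a value to its upper bound was between 51.3% and 54.2% of the value.

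Markers of other cells differed between the groups, and their part in the values above was not tested. Skeletal muscle markers (12 genes) summed to 1004 and 1419 FPKM in WT PBS and ASNase, to 6.05 and 9.23 without Gcn2 and to 79.3 and 183 without Atf4. The WT groups, which were lowest for Egr1, were thus highest for these. Relative to WT PBS, 9 of 11 eligible muscle markers were called lower in Gcn2-/- PBS and 9 of 12 in Atf4-/- PBS. Over all eligible genes 1.04% and 1.12% were called in either direction in these comparisons. Lung epithelium markers (5 genes) summed to 134 in WT PBS and to at most 2.35 in every other group, led there by Scgb1a1 and Sftpc, and Scgb1a1 is listed at 0 in both Atf4-/- groups. Pancreatic acinar markers (7 genes) summed to 275 in Atf4-/- ASNase, 40.1 in WT ASNase and at most 0.781 elsewhere, with 6 of the 7 genes listed at 0 in both Gcn2-/- groups, and 5 of 6 eligible were called higher after ASNase in Atf4-/- livers, where Myc, Atf3 and Pim1 were also called. In WT livers 4 of 4 eligible acinar markers (Cela3b, Prss2, Pnlip and Ctrb1) were called higher after ASNase, and 0 members were. Over all eligible genes 0.76% were called higher after ASNase in WT and 2.74% in Atf4-/- livers. Acinar markers over 3 FPKM numbered 0 in WT PBS and in Atf4-/- PBS. Those eligible thus passed the FPKM limit only through their ASNase value and could not be called lower. The summed acinar markers were near 0 in Gcn2-/- ASNase, in which Jun, Ier3, Btg2, Tnfaip3, Gadd45g and Socs3 were called. Erythroid markers (4 of 6 genes matched) summed to 8.36 in Gcn2-/- ASNase and 4.29 in Atf4-/- ASNase against 75.1 to 136 in the other groups.

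Among resident and immune cells, Kupffer cell markers (8 genes) summed to 244, 137, 163, 223, 281 and 173 FPKM in WT PBS, WT ASNase, Gcn2-/- PBS, Gcn2-/- ASNase, Atf4-/- PBS and Atf4-/- ASNase. Within that list Marco was called higher after ASNase in both mutants (from 8.32 to 118 and from 9.22 to 67.3) while Clec4f was at 67.3 and 15.9 and at 102 and 30.1, not called, and Cd5l, named after its values were seen, was called lower in Atf4-/- livers. Neutrophil markers (10 genes) were low, from 1.67 in Gcn2-/- ASNase to 16.9 in Atf4-/- PBS, and were lower under ASNase than under PBS in each strain. B cell markers (5 genes) summed to 5.53 and 4.06 in the mutant ASNase groups against 17.3 to 36.1 elsewhere, and T cell markers (6 genes) were between 0.906 and 4.50. Endothelial markers (7 genes) ranged from 56.1 to 122, stellate cell and fibroblast markers (8 genes) from 98.8 to 160, cholangiocyte markers (5 genes) from 20.1 to 39.8 and adipose markers (5 genes) from 1.81 to 8.65.

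**Figure D5:**
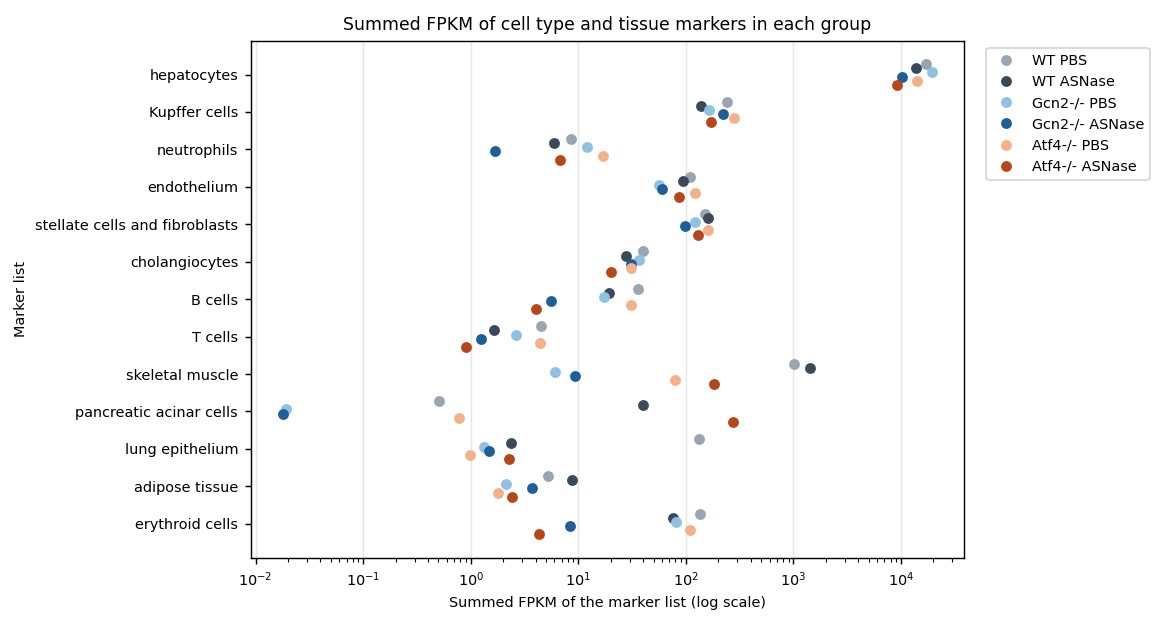
Summed FPKM (log scale) of 13 marker lists, 1 point per group, with no interval. Hepatocyte sums lie between 9191 and 19331 in the 6 groups, skeletal muscle sums are highest in the WT groups, and the acinar sum is highest in Atf4-/- ASNase at 275.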

How the data were processed

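Poly-A RNA of 18 mouse livers (6 groups of 3) was sequenced by the authors as single-end reads from a library kit that does not mark strand. Per the labels and the study's methods the reads were aligned to mm10 with TopHat, and Cuffdiff gave the deposited FPKM values, 1 per gene and group, with interval bounds in FPKM and a status. The level of the interval is not given in the sources used here. The table holds no counts, so the depth of each library is unknown from it, and the intervals stand for the precision. All value columns were mapped to groups and 0 were left out. Groups follow the sample titles.

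Python 3.11.15 with pandas 2.3.3, numpy 2.4.6 and matplotlib 3.10.9 was used. Groups were compared in 9 pairs on log2(FPKM + 0.1) by the rule in the report. Its FPKM limit of 3 and log2 limit of 1.5 follow the study's methods, and the condition on the intervals was used where no test could be. The combined interval of a difference is the root of the summed squared distances to the facing bounds on the log2 scale. No test over libraries was run, since the table holds 1 pooled value per group.

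The 10 members, the gene lists and the markers were chosen with earlier results of these data known. All members were named. From each list the genes called in at least 1 comparison were named, at most 4 by largest difference, and from each marker list at most the 2 genes of highest FPKM, with exceptions stated. Alternatives were the pseudocount, the FPKM and fold limits, the condition on the intervals and median-ratio scaling. Positions are those of GENCODE M21 and promoters those of RefSeq.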

Additional observations from a re-analysis of the deposited data

How the results depend on the processing

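Of 90 differences of a member, 3 calls were lost with a pseudocount of 1 (Egr1 in Gcn2-/- PBS against WT PBS, 1.49, and Fosl2 in Atf4-/- ASNase against Atf4-/- PBS, 1.41, and against WT ASNase, 1.44), and 1 was gained with a pseudocount of 0.01 (Fosl2 in Gcn2-/- livers after ASNase, 1.51). The same Fosl2 difference was gained with a fold limit of 1 (1.45). Jun in Atf4-/- livers after ASNase (1.79) was gained with the combined interval and with no condition on the intervals, which also added Fos in Gcn2-/- PBS (1.56). An FPKM limit of 1, no limit and median-ratio scaling (factors 0.977 to 1.03) changed no member call, although scaling turned the sign of 2 small differences (Jun between Atf4-/- ASNase and Gcn2-/- ASNase, 0.02 to -0.00, and Jund between Atf4-/- PBS and Gcn2-/- PBS, -0.02 to 0.00). The number of members called in Gcn2-/- PBS against WT PBS, 1, was 0 with a pseudocount of 1 and 2 with no condition on the intervals. The number of members whose response differed between Gcn2-/- and WT by more than its error, 0, was 1 with a pseudocount of 1.

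Over all eligible genes, the 9 counts of 93, 101, 88, 80, 340, 699, 416, 790 and 298 calls, in the order Gcn2-/- PBS against WT PBS, Atf4-/- PBS against WT PBS, Atf4-/- PBS against Gcn2-/- PBS, ASNase against PBS in WT, Gcn2-/- and Atf4-/-, Gcn2-/- ASNase and Atf4-/- ASNase against WT ASNase, and Atf4-/- ASNase against Gcn2-/- ASNase, were 181, 180, 170, 134, 607, 1160, 723, 1276 and 581 with no condition on the intervals. With no FPKM limit the counts against WT PBS were 144 in Gcn2-/- PBS, 153 in Atf4-/- PBS and 124 in WT ASNase.

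No paired analysis was possible because the table holds 1 pooled value per group, and leaving out each replicate in turn could not be run for the same reason. Low FPKM limits Fosb, and wide intervals limit Fos and the WT values of Myc and Ier3.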
